A study of Rattus norvegicus with 6 samples.

Results

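The immune checkpoint receptors and ligands are cell surface proteins through which tumor and myeloid cells restrain T cells. The 10 genes listed for this group were found by symbol among the 30562 rows of the deposited count table, each in 1 row. Of these, 5 encode ligands or B7 family proteins (Cd274, Pdcd1lg2, Cd80, Cd86 and Vsir) and 5 encode receptors (Pdcd1, Ctla4, Lag3, Havcr2 and Tigit). They were measured by bulk RNA-seq in 6 mammary tumors of female F344 rats, an inbred strain, with 3 tumors from older rats (102, 107 and 116) and 3 from younger rats (157, 158 and 167). Every rat received a subcutaneous MPA pellet of 50 mg with release over 90 days, MPA being a progestin, and then 65 mg per kg of the carcinogen DMBA by gavage. Older rats were 21 to 23 months old at DMBA and younger rats 4 months old. Every tumor the younger rats had developed was sequenced, whereas the older tumors were those with adequate tissue, and normal mammary tissue was not analysed here. Each tumor was 1 library from 1 rat, so p-values measure the spread between tumors of different rats.

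PD-1, the product of Pdcd1, is a receptor of activated T cells that dampens signaling from the T cell receptor when it binds PD-L1 (Cd274) or PD-L2 (Pdcd1lg2). CD80 and CD86 on antigen-presenting cells bind CD28, which promotes T cell activation, and CTLA-4, which competes for them and blocks it. LAG-3, TIM-3 (Havcr2) and TIGIT are further inhibitory receptors of T cells and natural killer (NK) cells, and TIM-3 is also carried by myeloid cells. VISTA (Vsir), a B7 family protein of myeloid cells that can act as ligand and as receptor, was placed with the ligands. In breast tumors PD-L1 is carried by macrophages and by tumor cells, and its gene is induced by interferon gamma.

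Cd274 and Pdcd1lg2 lie next to each other on rat chromosome 1 on the same strand, with 1 annotated pseudogene between them. They are shown because counts of this neighboring pair were so unlike. Both stretches are the 250 bases upstream of an annotated start in RefSeq (assembly GRCr8, plus strand), at chr1:236529982-236530231 for Cd274 and at chr1:236572247-236572496 for Pdcd1lg2. The annotated Cd274 gene begins further upstream, so its stretch belongs to 1 of its starts.
Cd274: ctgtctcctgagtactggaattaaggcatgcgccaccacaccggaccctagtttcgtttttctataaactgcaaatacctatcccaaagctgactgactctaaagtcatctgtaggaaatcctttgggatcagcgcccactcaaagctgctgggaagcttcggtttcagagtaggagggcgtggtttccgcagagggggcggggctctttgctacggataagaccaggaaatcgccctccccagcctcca
Pdcd1lg2: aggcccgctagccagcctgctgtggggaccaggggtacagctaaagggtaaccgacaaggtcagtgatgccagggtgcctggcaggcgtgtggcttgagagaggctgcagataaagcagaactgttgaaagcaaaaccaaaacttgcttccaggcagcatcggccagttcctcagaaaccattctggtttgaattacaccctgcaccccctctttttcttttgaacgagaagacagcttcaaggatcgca
Promoters of 9 of the 10 genes were matched, in 10 windows of 250 bases, since Cd80 has 2. Both strands were searched for a GAS motif (TTCNNNGAA), an ISRE core (GAAA, then NN, then GAAA), an NF-kB motif (GGGA, then NNNN, then CC) and an AP-1 motif (TGANTCA), where N is any base. Among all 33469 windows of this length the motifs were held by 7.67%, 3.41%, 16.4% and 6.34%, respectively. Of the 10 windows, 1 held the GAS motif, 1 held the ISRE core and 0 held either of the others, so neither sequence above has capitals. The GAS and ISRE matches were in different windows of Cd80, on the minus strand of GRCr8, at chr11:75797594-75797623 and chr11:75797444-75797473. Capitals mark the matched bases, and for the ISRE core they are on the opposite strand.
Cd80 GAS: ctgtggcgggTTCTCGGAAcaggcctggac
Cd80 ISRE: ctcttactagTTTCTTTTTCaggttgtgaa
A match is a description of letters and not of a bound site, and the counts do not bear on binding.

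Depth set what could be measured. Totals ran from 3508571 counts in tumor 102 to 6525830 in tumor 158, and 3 counts, taken as the floor per library, corresponded to between 0.530 and 1.03 CPM (counts for each 1e6 counts of the library, scaled with TMM factors). These limits cover counting error only. Mean Pearson correlation of log2 CPM with the other libraries was lowest for tumor 102, at 0.829, and 0.867 to 0.898 for the rest (a description across genes). The luminal epithelial markers found, 5 of 6, were counted in every tumor, with sums of 1279 to 1888 CPM. Of the 10 checkpoint genes, 6 had counts in every tumor. By edgeR's filter on low counts 4 ligands (Cd274, Cd80, Cd86 and Vsir) and 1 receptor (Lag3) could be tested. Pdcd1lg2, Pdcd1, Ctla4, Havcr2 and Tigit did not pass and are given by their counts.

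Between tumors from older and younger rats, 0 of the 5 checkpoint genes tested passed an adjusted p of 0.05 (edgeR's quasi-likelihood test, Benjamini-Hochberg adjustment over 13139 genes), where 0% of all genes did so. At an unadjusted p under 0.05 there was 1, Cd86, higher in older tumors, against 8.59% of all genes tested (5.3% higher and 3.29% lower). By sign alone 3 were higher in tumors from older rats (Cd86, Vsir and Lag3) and 2 were lower (Cd274 and Cd80), where 49.6% of all genes were higher and 50.4% lower. Their median log2 fold change was 0.31, against -0.00387 over all genes tested. None of the 5 had groups that did not overlap, which held for 12.1% of all genes (6.51% higher and 5.58% lower in older tumors). DESeq2's Wald test called 2.48% of all genes (1.67% higher in older tumors) and 0 of the 5, and limma-voom called 0 genes. In bulk tissue, fewer cells of a type and less RNA per cell cannot be told apart.

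**Figure D1:**
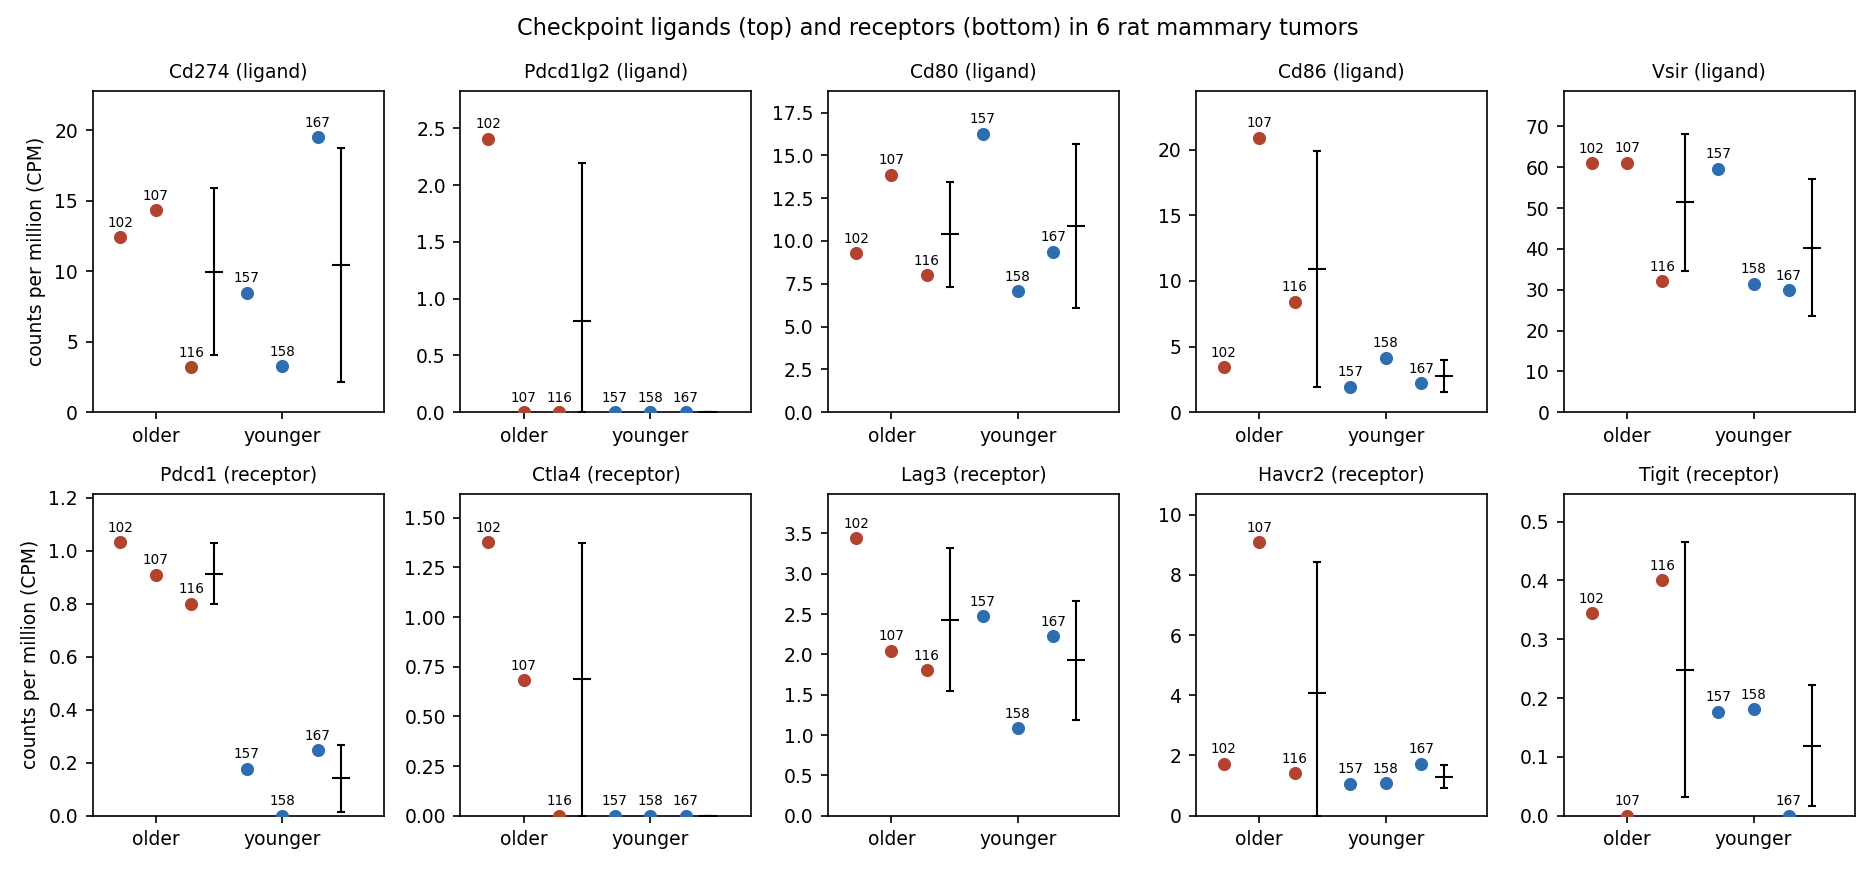
CPM (y axis, linear and different for each gene) of the 5 ligands (top) and 5 receptors (bottom) in each tumor, with older tumors in red and younger ones in blue. Points are tumors with their numbers, and the black mark and bar are mean and SD (n = 3), with the lower bar ended at 0. Cd86 and Havcr2 were highest in tumor 107 (20.9 and 9.09 CPM), and Pdcd1 was at most at 1.03 CPM.

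Cd86, which encodes a ligand of CD28 and CTLA-4 on antigen-presenting cells, had the largest difference among the 5 genes tested. In older tumors it was at 3.44 CPM (102), 20.9 CPM (107) and 8.41 CPM (116), and in younger tumors at 1.94 CPM (157), 4.16 CPM (158) and 2.22 CPM (167). Tumors 107 and 116 lay above every younger tumor and tumor 102 lay below tumor 158, so the groups overlapped. Its mean was 10.9 ± 9.0 CPM (SD, n = 3) in older and 2.78 ± 1.21 CPM (SD, n = 3) in younger tumors. This was a log2 difference of 1.97 (standard error 0.70, unadjusted p = 0.0240, adjusted p = 0.470, edgeR). Tumor 107 carried much of it, since without that tumor the log2 fold change was 1.10 (adjusted p = 0.754, edgeR).

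Cd80, which encodes the other CD28 and CTLA-4 ligand, overlapped widely between the groups. Its values were 9.30 CPM (102), 13.9 CPM (107) and 8.01 CPM (116) in older tumors and 16.3 CPM (157), 7.06 CPM (158) and 9.38 CPM (167) in younger ones. The highest and the lowest value both came from younger tumors (edgeR log2 fold change -0.07, standard error 0.44, adjusted p = 0.984). The 95% interval of the log2 fold change ran from -1.09 to 0.95.

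Cd274, the PD-L1 gene, varied more within each age group than between them. It was at 12.4 CPM (102), 14.3 CPM (107) and 3.20 CPM (116) in older tumors and at 8.49 CPM (157), 3.26 CPM (158) and 19.5 CPM (167) in younger ones. The 6.09-fold span between tumors 116 and 167 lay across the age groups, and each group held a tumor near 3 CPM. The means were 9.97 ± 5.94 CPM (SD, n = 3) in older and 10.4 ± 8.29 CPM (SD, n = 3) in younger tumors (edgeR log2 fold change -0.06, standard error 0.75, adjusted p = 0.993). The 95% interval of the log2 fold change was wide, from -1.81 to 1.69, and without tumor 167 the log2 fold change was 0.75.

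Pdcd1lg2, the PD-L2 gene, had 7 counts in tumor 102 and 0 in the other 5 tumors. It was thus counted in 1 older tumor, at 2.41 CPM, and in the other tumors 0 counts allow up to between 0.530 and 0.741 CPM. Its neighbor Cd274 had between 16 and 79 counts in the same libraries. The share of Cd274 among counts of the pair was 83.7% in tumor 102 (36 of 43 counts, Wilson 95% interval 70.0% to 91.9%) and 100% in the others. With 1 tumor set apart, a test between age groups has no power, and none is given.

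Vsir, the VISTA gene, had the most counts of the group, 1238 over the 6 tumors. It was at 60.9 CPM (102), 61.1 CPM (107) and 32.0 CPM (116) in older tumors and at 59.6 CPM (157), 31.5 CPM (158) and 29.9 CPM (167) in younger ones. Tumors 102, 107 and 157 were high and the other 3 low, so both levels occurred in both age groups (edgeR log2 fold change 0.35, standard error 0.38, adjusted p = 0.902). The 95% interval of the log2 fold change ran from -0.55 to 1.24.

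**Figure D2:**
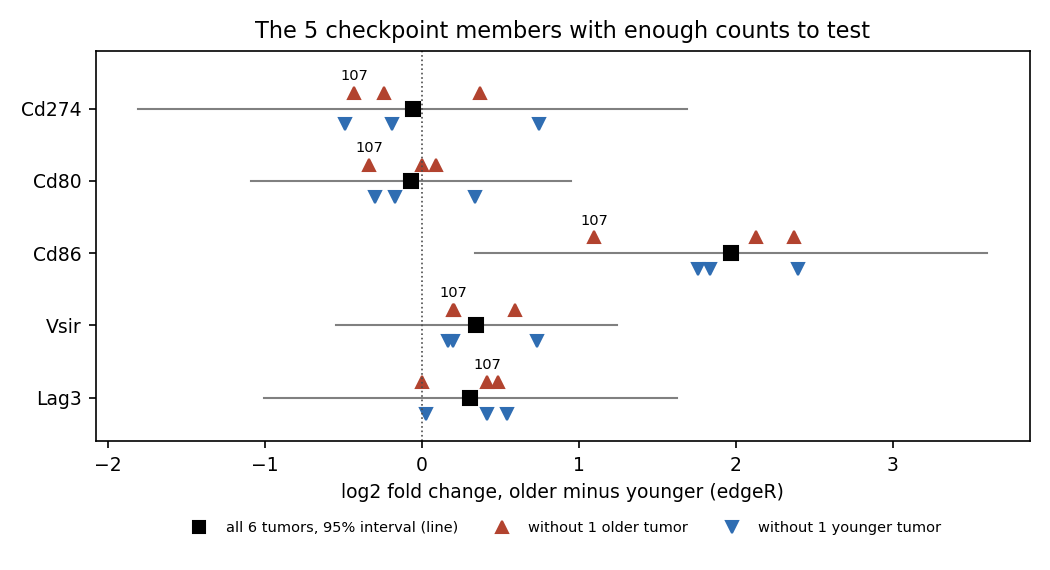
Log2 fold change, older minus younger tumors (x axis), of the 5 checkpoint genes tested with edgeR. Squares and lines are the estimate and 95% interval from all 6 tumors, and triangles are fits without 1 older (red, upward) or 1 younger (blue, downward) tumor; estimates of Cd274 and Cd80 fall on both sides of 0, and Cd86 moves from 1.97 to 1.10 without tumor 107.

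Among the receptors, Lag3, whose product binds MHC class II, was the only gene with enough counts to be tested. It had 10, 9 and 9 counts in older tumors 102, 107 and 116, and 14, 6 and 9 in younger tumors 157, 158 and 167. In CPM this gave 3.44, 2.05 and 1.8 against 2.48, 1.09 and 2.22, and the groups overlapped (edgeR log2 fold change 0.31, standard error 0.57, adjusted p = 0.942). The 95% interval of the log2 fold change ran from -1.01 to 1.62.

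Havcr2, the TIM-3 gene, was set apart in a single older tumor. Tumor 107 had 40 counts (9.09 CPM), while the other 5 tumors had between 5 and 7 counts (1.06 to 1.73 CPM). The value in tumor 107 was 5.26 times the next highest, and older tumors 102 (1.72 CPM) and 116 (1.40 CPM) lay within the younger range. Over the summed counts, 52 in older and 19 in younger tumors, the ratio per depth was 3.39 (exact 95% interval 1.97 to 6.07, counting error only). With all genes of at least 1 count tested, its log2 fold change was 1.65 (adjusted p = 0.695, edgeR).

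Pdcd1, the PD-1 gene, had at most 4 counts in any tumor, with more in the older ones. There were 3 (102), 4 (107) and 4 (116) counts in older tumors and 1 (157), 0 (158) and 1 (167) in younger ones, or 0.801 to 1.03 CPM against 0 to 0.247 CPM. The groups did not overlap, with older tumors higher, as held for 6.51% of the genes with enough counts to be tested. All younger libraries were under the floor of 3 counts and the older ones at it or 1 count above. The ratio of summed counts per depth, 11 against 2, was 6.81 (exact 95% interval 1.49 to 63.3, counting error only). With all genes of at least 1 count tested, the adjusted p was 0.625 (edgeR).

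Ctla4 was counted in 2 older tumors, with 4 counts in tumor 102 and 3 in tumor 107. It had 0 counts in older tumor 116 and in all younger tumors, which allows up to between 0.530 and 0.741 CPM in those 4 libraries. Cd28, which encodes the activating receptor for the same ligands, also had few counts, from 3 to 29 per tumor. Ctla4 made up 44.4% of the counts of this pair in tumor 102 (4 of 9, Wilson 95% interval 18.9% to 73.3%) and 42.9% in tumor 107 (3 of 7, 15.8% to 75.0%). In tumor 116 it was 0% of 29 counts, with an upper bound of 11.7%, which lies under both of those intervals. In younger tumors it was 0% of 3, 7 and 5 counts, with upper bounds of 56.1%, 35.4% and 43.4%. The mean share differed by 29.1 percentage points between age groups, which rests on the 7 counts of tumors 102 and 107. Its two-sided exact permutation test gave p = 0.4, and 0.8 after adjustment over 4 pairs. With all genes of at least 1 count tested, the adjusted p of Ctla4 was 0.610 (edgeR).

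Tigit, whose product binds the poliovirus receptor PVR and nectin-2, had between 0 and 2 counts per tumor and 5 in all. This is under the floor in every library, so no difference between the age groups was detectable at this depth. The genes of its ligands had more counts. Pvr was at 15.1 to 22.6 CPM in older and 18.8 to 35.1 CPM in younger tumors (edgeR log2 fold change -0.66, standard error 0.34, adjusted p = 0.689). Nectin2 was at 42.0 to 82.1 CPM and 55.2 to 76.2 CPM (edgeR log2 fold change -0.10, standard error 0.30, adjusted p = 0.972). Cd226, the activating receptor for these ligands, had 2 to 14 counts per tumor against the 5 Tigit counts in all, too few to compare their balance.

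Sums of several leukocyte marker lists were higher in every older tumor, although no gene of these lists passed the test. Ptprc, the CD45 gene of all leukocytes, had 504 to 1557 counts in older and 170 to 332 in younger tumors. T cell markers (11 of 12 names found, 5 tested) summed to 41.3, 179.6 and 49.9 CPM in older tumors 102, 107 and 116 and to 15.2 to 26.3 CPM in younger ones, without overlap. Their mean log2 sums differed by 1.75 (p = 0.1 in an exact permutation test, two-sided, which is the smallest value 3 tumors against 3 can give). Cd8a (74.6 CPM) and Lck (56.4 CPM), which NK cells can also express, made up most of the sum in tumor 107. The chains of CD3, which define T cells, were not highest there, with Cd3e at 4.32 CPM against 5.21 CPM in tumor 116 and Cd3g at 4 counts against 15. Cd3d was at 0 counts in tumors 102 and 158. Macrophage markers (12 of 12 found and tested) summed to 837 to 1496 CPM in older and 240.4 to 655 CPM in younger tumors (difference of mean log2 sums 1.38, exact permutation test, p = 0.1).

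NK cell markers (6 of 7 names found, 5 tested) summed to 644 CPM in tumor 107, against 59.2 CPM in tumor 102, 28.6 CPM in tumor 116 and 7.96 to 14.9 CPM in younger tumors. Tumor 107, in which Cd86 and Havcr2 were highest, thus stood apart in these markers, with perforin (Prf1) at 189 CPM and granzyme B (Gzmb) at 207 CPM. Dendritic cell markers (9 of 9 found, 8 tested) summed to 65.9 to 238 CPM in older and 39.0 to 57.0 CPM in younger tumors. Their sum was also highest in tumor 107, where Xcr1 of cross-presenting dendritic cells was at 29.1 CPM against at most 1.06 CPM elsewhere. Clec9a of the same list was higher in tumor 102 (38.9 CPM) than in tumor 107 (30.7 CPM), and at most at 5.68 CPM elsewhere. The part of NK and dendritic cells in the levels of Cd86 and Havcr2 was not tested.

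B cell markers summed to 4.13 to 9.55 CPM in older and 2.17 to 6.36 CPM in younger tumors, and the defining genes Cd79b and Ms4a1 had 0 counts in every tumor. Of the lymph node list the follicle and stroma genes Cr2, Ccl19 and Ccl21 had at most 2 counts per tumor. Other genes of that list had more, with 1 to 14 counts per tumor for Fcer2 and 5 to 65 for Cxcl13. The sum of the list, 90.5 to 4093 CPM in older and 14.3 to 58.1 CPM in younger tumors, was largely Glycam1, which mammary epithelium also makes. Luminal epithelial markers were lower in older tumors, with sums of 1279 to 1342 CPM against 1628 to 1888 CPM. Fibroblast sums (119 to 1308 CPM) and endothelial sums (69.4 to 402 CPM) overlapped between age groups. At an adjusted p of 0.05, 0 of the genes tested on any of these lists passed (edgeR), and the part of cell makeup in the checkpoint values was not tested.

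**Figure D3:**
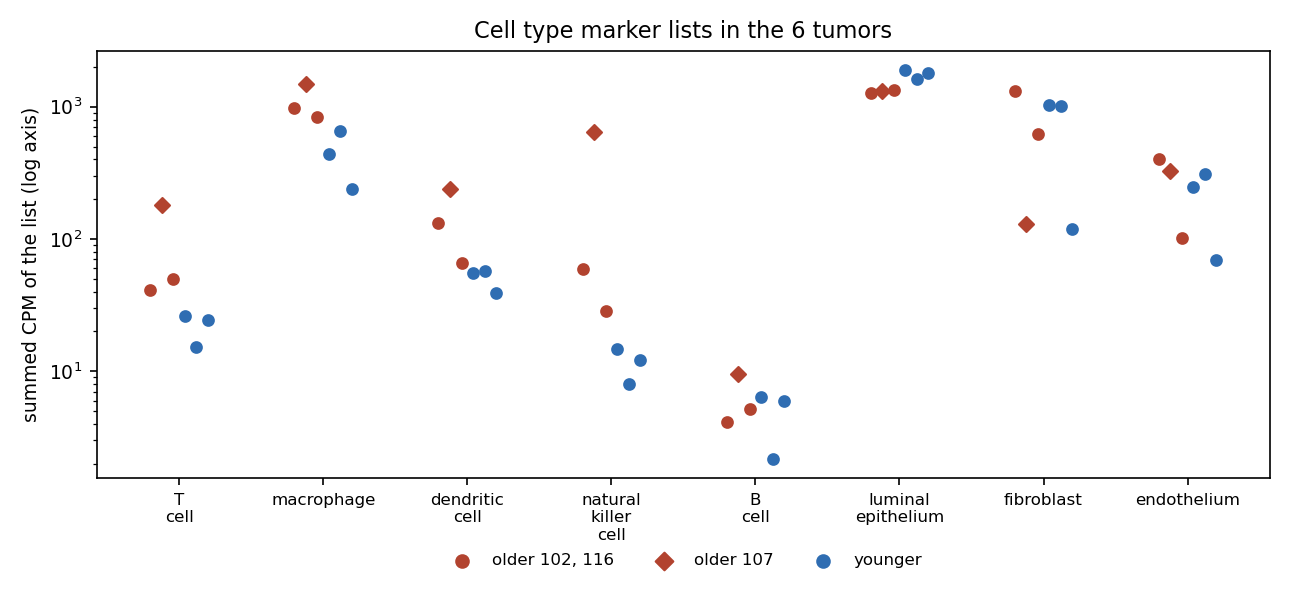
Summed CPM (y axis, log scale) of the marker genes of 8 cell types in each tumor; red points are older tumors, with tumor 107 as a diamond, and blue points are younger tumors. T cell, macrophage, dendritic cell and NK cell sums were higher in all older tumors, NK cell markers reached 644 CPM in tumor 107, and luminal epithelial sums were lower in all older tumors.

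Ligand counts were next set against macrophage marker counts of the same library, which needs no scaling between libraries. Cd80 gave 9.50 (102), 9.27 (107) and 9.57 (116) counts per 1000 macrophage marker counts in older tumors and 37.1 (157), 10.8 (158) and 39.0 (167) in younger ones. All older tumors lay below all younger ones (two-sided exact permutation test, p = 0.1, and 0.6 after adjustment over 10 such ratios). Tumor 158 lay near the older tumors, and Cd14 gave 2328 of its 3620 macrophage marker counts (64.3%, against 8.74% to 26.8% elsewhere). Without Cd14, an alternative chosen after seeing the data, Cd80 gave 10.7, 10.2 and 13.1 in older and 47.8, 30.2 and 52.0 in younger tumors (p = 0.1, exact permutation test). This pattern was common, since 53.5% of all genes tested were lower in every older tumor relative to the whole list and 0.358% were higher. Lyz2 gave 1492 of 2843 (102), 3681 of 6581 (107) and 1664 of 4178 (116) macrophage marker counts in older tumors. In younger tumors it gave 792 of 2483 (157), 452 of 3620 (158) and 171 of 974 (167). No ratio without Lyz2 was computed, so the separation of Cd80 was shown for these lists only. Cd86 gave 3.52 to 14.0 counts per 1000 in older and 4.43 to 9.24 in younger tumors (p = 0.6, exact permutation test). For Cd274 the values were 3.83 to 12.7 and 4.97 to 81.1 (p = 0.3, exact permutation test), for Vsir 38.3 to 62.3 and 48.1 to 136 (p = 0.2, exact permutation test) and for Havcr2 1.68 to 6.08 and 1.66 to 7.19 (p = 0.7, exact permutation test). Without Cd14 the ratios of Vsir did not overlap either, at 44.8 to 70.1 in older and 135 to 175 in younger tumors (p = 0.1, exact permutation test). The share of all genes lower in every older tumor was not counted for the list without Cd14. The separation of Cd80 and Vsir there thus has no such share beside it. Pdcd1lg2 gave 2.46 in tumor 102 and 0 elsewhere.

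The receptors were set against T cell marker counts, of which Cd8a and Lck gave most in tumor 107. Lag3 gave 83.3 (102), 11.4 (107) and 36.1 (116) counts per 1000 of them in older tumors and 94.0 (157), 71.4 (158) and 91.8 (167) in younger ones. Tumor 102 lay within the younger range and the other older tumors below it (two-sided exact permutation test, p = 0.2). Pdcd1 gave 5.06 to 25.0 counts per 1000 in older and 0 to 10.2 in younger tumors (p = 0.3, exact permutation test). The ratios of Pdcd1, Ctla4 and Tigit rested on 0 to 4 counts per tumor, too few to compare the age groups. None of the 4 ratios separated the groups, where 65.1% of all genes tested were lower and 0.198% higher in every older tumor.

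Against Ptprc counts the members split in another way. Cd274, Cd80, Vsir and Lag3 were lower in every older tumor, where 81.4% of all genes tested were lower and 0.129% higher. Cd274, for example, gave 31.7 to 58.4 counts per 1000 Ptprc counts in older and 106 to 382 in younger tumors. Cd86, with 16.2 to 83.3 in older and 33.1 to 135 in younger tumors, overlapped between the age groups, as did Havcr2 with 8.12 to 25.7 and 18.1 to 35.3.

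The balance of both CD28 and CTLA-4 ligands was compared as the share of Cd80 in their counts, with intervals that cover counting error only. Cd80 made up 73.0% of Cd80 and Cd86 counts in tumor 102 (27 of 37, Wilson 95% interval 57.0% to 84.6%), 39.9% in tumor 107 (61 of 153, 32.5% to 47.8%) and 48.8% in tumor 116 (40 of 82, 38.3% to 59.4%). In younger tumors the share was 89.3% in tumor 157 (92 of 103, 81.9% to 93.9%), 62.9% in tumor 158 (39 of 62, 50.5% to 73.8%) and 80.9% in tumor 167 (38 of 47, 67.5% to 89.6%). Tumors 107 and 116 had the lowest shares, and tumor 102 lay among the younger tumors. The means of 53.9% ± 17.1 (SD, n = 3) and 77.7% ± 13.5 (SD, n = 3) differed by -23.8 percentage points (two-sided exact permutation test, p = 0.2, and 0.8 after adjustment over 4 pairs).

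**Figure D4:**
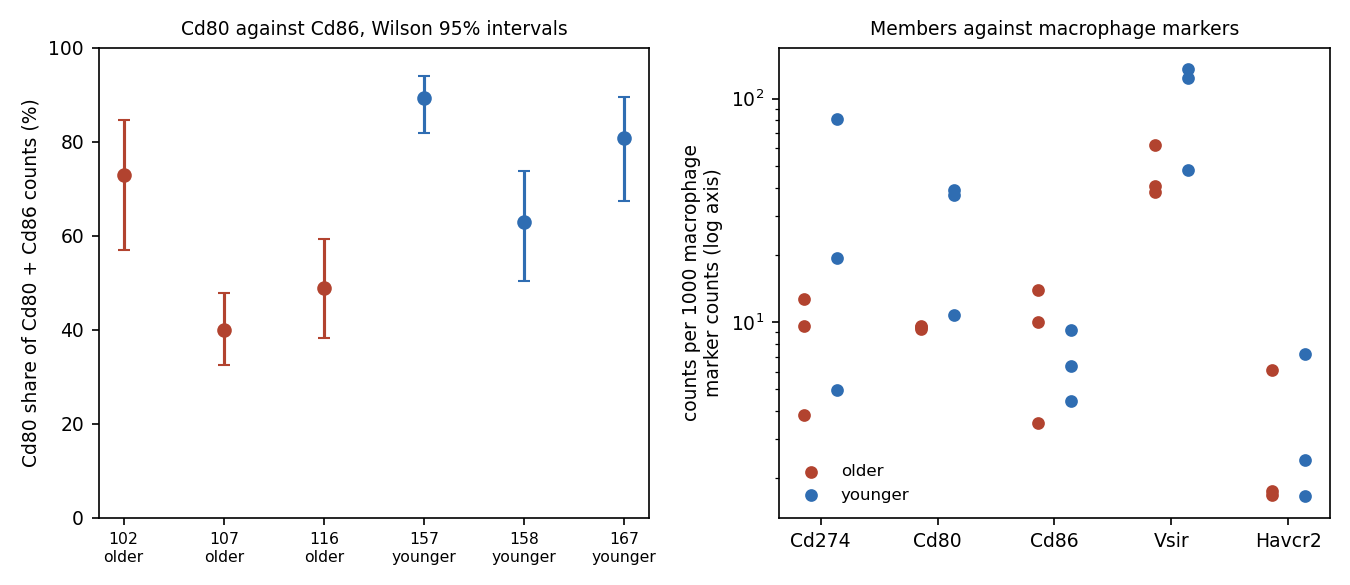
Left, Cd80 share of Cd80 plus Cd86 counts (y axis, percent) in each tumor with Wilson 95% intervals; right, counts per 1000 macrophage marker counts (y axis, log scale) of 4 ligands and Havcr2, with older tumors in red and younger ones in blue. The share was lowest in tumors 107 (39.9%) and 116 (48.8%), and the older tumors lie at 9.27 to 9.57 for Cd80.

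Other genes of the pathway showed 0 calls in either direction at an adjusted p of 0.05 (edgeR). Of 20 other inhibitory receptors and ligands, found in 21 rows since Cd244 has 2, 14 rows were tested, and 4 had an unadjusted p under 0.05, all higher in older tumors, where 5.3% of all genes were. Their median log2 fold change was 0.70. Tnfrsf14, which encodes HVEM, the ligand of the inhibitory receptor BTLA, was at 9.64, 23 and 8.61 CPM in older tumors 102, 107 and 116 and at 4.07, 1.27 and 1.97 CPM in younger tumors 157, 158 and 167. These groups did not overlap (edgeR log2 fold change 2.48, standard error 0.62, adjusted p = 0.315), and the log2 fold change was 1.89 without tumor 107 and 3.07 without tumor 157 (adjusted p = 0.520 and 0.726, edgeR). Btla itself, another of these 4 genes and named after its values were seen, was at 44.3 CPM in tumor 107 and at 0.494 to 2.75 CPM elsewhere.

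Ceacam1, an adhesion molecule that binds TIM-3, was at 512, 154 and 131 CPM in older and 54.5, 86.1 and 58.8 CPM in younger tumors (edgeR log2 fold change 2.00, standard error 0.55, adjusted p = 0.342). Without tumor 102 its log2 fold change was 1.09 (adjusted p = 0.419, edgeR). Vtcn1, which encodes the inhibitory B7 protein B7-H4 of mammary epithelium, was at 80.6, 49.8 and 106 CPM in older and 28.3, 9.41 and 44.2 CPM in younger tumors (edgeR log2 fold change 1.53, standard error 0.55, adjusted p = 0.471). Both were higher in every older tumor, as 6.51% of all genes were. Lgals9, the gene of the TIM-3 ligand galectin-9, was at 18.6 CPM in tumor 102, below the 87.7 to 190.1 CPM of the other tumors (edgeR log2 fold change -0.96, standard error 0.58, adjusted p = 0.764).

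Of the costimulatory genes (14 of 15 names found, Icosl and Icoslg being names of the same gene), 4 were tested, with a median log2 fold change of 0.46 and 0 at an unadjusted p under 0.05. Icos, a costimulatory receptor of activated T cells, was at 2.00 to 5.0 CPM in older and 0.707 to 2.22 CPM in younger tumors (edgeR log2 fold change 1.51, standard error 0.65, adjusted p = 0.579). Icoslg, the gene of its ligand, was at 31.7 to 80.5 CPM and 21.7 to 52.8 CPM (edgeR log2 fold change 0.46, standard error 0.45, adjusted p = 0.878).

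Of the genes of PD-1 signaling and PD-L1 control, 10 of 11 names were found and 9 tested, 2 of them with an unadjusted p under 0.05 and higher in older tumors, where 5.3% of all genes were. Their median log2 fold change was 0.60. In 3 of the 9 every older tumor was higher (Ifngr2, Ifngr1 and Ptpn6), and in 1, Jak2, every older tumor was lower, where 6.51% and 5.58% of all genes were. Ifngr2 and Ifngr1 encode the interferon gamma receptor. Ifngr2 was at 75.9 to 98.1 CPM against 38.7 to 52.8 CPM (edgeR log2 fold change 0.94, standard error 0.24, adjusted p = 0.318). Ifngr1 was at 138 to 692 CPM, highest in tumor 102, against 68.1 to 136 CPM (edgeR log2 fold change 1.86, standard error 0.65, adjusted p = 0.455), and without tumor 102 its log2 fold change was 0.76 (adjusted p = 0.804, edgeR). Ptpn6, the gene of the phosphatase SHP-1, was at 40.6 to 79.6 CPM against 29.9 to 39.1 CPM (edgeR log2 fold change 0.60, adjusted p = 0.726). Jak2, a kinase of interferon gamma signaling, was at 81.6 to 96.7 CPM against 104 to 130.1 CPM (edgeR log2 fold change -0.35, adjusted p = 0.761). Ifng itself had 5 counts in tumor 107 and 0 elsewhere. Irf1, an interferon gamma target that induces Cd274, was at 15.8 CPM in tumor 102, 71.4 CPM in tumor 107 and 56.5 CPM in tumor 116, with younger tumors at 26.2 to 37.1 CPM. Cmtm6, which keeps PD-L1 at the cell surface, was at 156 to 385 CPM in older and 138 to 207 CPM in younger tumors (edgeR log2 fold change 0.61, standard error 0.37, adjusted p = 0.766).

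Of 13 factors of exhausted and regulatory T cells, 8 were tested, with 2 at an unadjusted p under 0.05 and higher in older tumors besides 1 that was lower, where 5.3% and 3.29% of all genes were. Their median log2 fold change was 0.36. Il2ra, the high-affinity interleukin receptor chain of regulatory and activated T cells, was at 8.61, 2.73 and 2.40 CPM in older and 1.24, 0.362 and 1.48 CPM in younger tumors (edgeR log2 fold change 2.12, standard error 0.76, adjusted p = 0.480). Without tumor 102 its log2 fold change was 1.32 (adjusted p = 0.855, edgeR). Prdm1, which encodes the factor BLIMP-1 of effector and exhausted T cells, was at 9.98, 15.9 and 6.21 CPM in older and 6.19, 4.34 and 1.97 CPM in younger tumors (edgeR log2 fold change 1.34, standard error 0.56, adjusted p = 0.561). Ikzf2, the Helios gene of regulatory T cells, had the opposite sign, at 4.48, 5.23 and 11.4 CPM in older and 17.1, 27.0 and 27.6 CPM in younger tumors (edgeR log2 fold change -1.74, standard error 0.45, adjusted p = 0.326). Foxp3, the defining factor of regulatory T cells, was at 4.55 to 7.23 CPM in older and 6.17 to 7.42 CPM in younger tumors (edgeR log2 fold change -0.21, standard error 0.38, adjusted p = 0.943). It had more counts than Cd3e in every tumor, with 40 against 8 in tumor 157 and 41 against 8 in tumor 158. Which cells carried Foxp3 and Ikzf2 was not tested. Tox, a factor of T cell exhaustion, was at 1.72 to 5.23 CPM and 4.16 to 4.94 CPM. Eomes and Tbx21, factors of effector T cells and NK cells, were at 23.2 and 23.9 CPM in tumor 107 and at most at 7.23 CPM elsewhere.

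The genes closest in pattern were sought by the root mean square difference of centered log2 CPM over the 6 tumors, among 13138 genes. For Cd86 these were Cd7 (0.37) and Faslg (0.40), both genes of T and NK cells, where the SD of Cd86 itself was 1.20. Their log2 fold changes, 2.01 and 2.25, were 0.87 and 0.69 without tumor 107. Lag3 was closest to Tgfbr3 (0.10) and Taf4b (0.10), Vsir to Slc35g3 (0.13) and Bcat1 (0.14), and Cd80 to Vegfb (0.12) and Rtl6 (0.14). Cd274 was closest to LOC102550999 (0.33) and LOC100360260 (0.36), known by locus numbers, where its own SD was 1.04. With 6 tumors and this many genes, such likeness is a description of these libraries.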

How the data were processed

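The authors deposited a table of raw read counts per gene for 6 rat mammary tumors. Per the series' design text, reads were checked with FastQC 0.11.7, trimmed with Trimmomatic 0.38, aligned with Star 2.7.9a, had duplicates marked with Picard 2.18.12 and were counted with HTSeq 0.13.5, and the submitters' processing notes name mRatBN7.2. The annotation, the strand setting and whether marked duplicates were counted are not given in the sources used here. RNA was depleted of ribosomal RNA, although the labels give polyA RNA, and read length is given as 150 and as 100 bases. Dropping duplicates, if done, would lower abundant genes most.

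Columns were matched to samples by tumor number, and 0 were unused. Rows without a gene name, 4367 of 30562 with 2.17% to 3.64% of counts, stayed out of library sizes and tests. Rows passing edgeR's filterByExpr, 13139, were scaled by TMM and compared by the quasi-likelihood test without covariates (R 4.3.3, edgeR 4.0.16, limma 3.58.1, DESeq2 1.42.0), threshold 0.05. Standard errors are the log2 fold change over the root of F, and a prior count of 2 entered log2 CPM for pattern likeness. Exact permutation tests, two-sided, served for ratios, shares and sums. The test was also run on 3 simulated data sets with 200 changed genes, whose outcome is not given here. Alternatives were other scalings, tests and filters, Ptprc as denominator, leaving out each tumor, and, chosen after seeing the data, keeping unnamed rows and leaving Cd14 out of the macrophage list.

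Members and lists were chosen with earlier results of these data known. Named were all members, Cd28, Cd226, up to 3 genes per list and direction with the smallest unadjusted p under 0.05, no overlap and a mean of at least 1 CPM, markers at 0 throughout, and 2 pattern neighbors per tested member. Other list and marker genes were named after their values were seen. Cd4, Klrb1a and Krt19 were not analysed here. Intervals are 95%.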

Additional observations from a re-analysis of the deposited data

How the results depend on the processing

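A paired fit with a replicate block was not made. No paired analysis was possible because each tumor came from a different rat and the labels pair no older rat with a younger one. The count of differentially expressed genes, 0 with edgeR (1128 at an unadjusted p under 0.05), was 326 with DESeq2's Wald test, 0 with limma-voom, 0 when all genes with at least 1 count were tested, 0 with unnamed rows kept and 0 in each fit without 1 tumor. The count of checkpoint genes past the threshold was 0 in all 14 alternatives. The log2 fold change of Cd86 kept its sign, from 1.096 to 2.394 with 1 tumor left out (adjusted p from 0.1638 to 0.941 over its alternatives), and that of Vsir did too. Signs changed, with 1 tumor left out, for Cd274 (-0.4903 to 0.7471), Cd80 (-0.3362 to 0.3342), LOC100360260 (-1.065 to 0.2172), LOC102550999 (-0.5382 to 0.7219), Rtl6 (-0.3883 to 0.4891), Slc35g3 (-0.09206 to 0.4969) and Vegfb (-0.5144 to 0.08551). They also changed for Cd274 (0.0215, limma-voom), LOC102550999 (-0.08674, edgeR with library totals) and Slc35g3 (-0.02883, edgeR with library totals). DESeq2 alone called Tnfrsf14, Ceacam1, Ifngr2 and Ikzf2, with adjusted p of 0.0124, 0.0236, 0.0413 and 0.0236. Relative to marker counts, the difference for Cd86 was -17.75 per 1000 with Ptprc as denominator and -0.9364 without Cd14 in the macrophage list, against 2.509. With 1 tumor left out that for Havcr2 ran from -2.037 to 1.134, for Tigit from -3.853 to 2.099 and for Pdcd1lg2 from 0 to 1.231, and the shares of Tigit and Cd274 in their pairs from -15.83 to 0.8333 and from -8.14 to 0 percentage points. The T cell and macrophage marker sums kept their sign. With at least 10 counts required in every tumor, Cd86, Faslg, Il2ra, LOC100360260, LOC102550999, Lag3, Prdm1 and Tnfrsf14 could not be tested. The causes were not tested. Depth limits Pdcd1, Ctla4, Tigit and Pdcd1lg2, at 0 to 7 counts per tumor.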
